A study of Mus musculus with 42 samples.

Results

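Livers of female APOE*3-Leiden mice were compared for their best measured long noncoding RNAs (lncRNAs). A gene of the count table was taken when GENCODE, on the mouse build GRCm38, classed it as lincRNA (intergenic) or antisense, and when its mean raw count over all 42 libraries was at least 500. Meg3, Rian, Mirg and H19 were left out by name, and of these H19 alone would have passed, with a mean count of 1708. This left 35 genes of 54446 in the table and of 8390 lincRNA and antisense genes, 26 of them lincRNAs and 9 antisense genes. All 35 passed the filter on low counts, as did 15574 genes in all, and 30 of the 35 had a mean count of at least 500 within each of the 3 groups. The genes were selected on their mean raw count, so their being abundant is no result. That mean weighs the larger WTD groups more than chow: AU020206 and Gm31522 had mean counts of 327.1 and 197.3 on chow and reached 500 only through the groups on WTD, while 2310001H17Rik, Gm37494 and Gm5524 were above 500 on chow and below it on WTD (463.3, 454.7 and 440.5).

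lncRNAs are transcripts that are often, but not always, spliced and polyadenylated like messenger RNA and are not known to be translated into a conserved protein. Some act where they are made, as Xist does when it coats one X chromosome of female cells and silences it, or Airn when it silences the neighbouring gene Igf2r on the paternal chromosome. Others are scaffolds of nuclear bodies, as Neat1 is for paraspeckles, or bind proteins or microRNAs elsewhere in the cell, and for most of the genes named only by a clone or prediction number no function is established.

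APOE*3-Leiden mice carry a human APOE*3-Leiden transgene, clear lipoprotein remnants slowly and become hyperlipidemic on a diet with cholesterol. A group of 10 mice stayed on chow. Another 2 groups of 16 mice, aged 8 to 14 weeks at the start, received a Western-type diet (WTD) of 15% cocoa butter, 40.5% sucrose and 1% cholesterol, first for a run-in of 3 weeks and then for 32 weeks, with 0.05% sodium cholate added from week 22. One of these groups received atorvastatin, an inhibitor of HMG-CoA reductase, mixed into the WTD from the end of the run-in, at 3.0 mg/kg/day and from week 5 at 4.5 mg/kg/day. All 42 livers were taken at week 32. Both WTD groups received the cholate, so its effect and that of the rest of the diet cannot be told apart against chow. The authors housed the mice in groups, and the labels do not say which mice shared a cage or litter. Each mouse was therefore treated as a separate replicate.

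The sequences around the start of 6 of these genes are shown because their levels carry the patterns described further on. They were chosen after their values were seen, from genes whose start in RefSeq lies within 151 bases of that in GENCODE. Each is the 250 bases before and 50 bases after the RefSeq start on GRCm38.p6, written 5′ to 3′ on the strand of the gene, and capitals mark a TATAAA or a CACGTG (E-box) on either strand.
Xist (lower on WTD, chrX:103483184-103483483, minus strand): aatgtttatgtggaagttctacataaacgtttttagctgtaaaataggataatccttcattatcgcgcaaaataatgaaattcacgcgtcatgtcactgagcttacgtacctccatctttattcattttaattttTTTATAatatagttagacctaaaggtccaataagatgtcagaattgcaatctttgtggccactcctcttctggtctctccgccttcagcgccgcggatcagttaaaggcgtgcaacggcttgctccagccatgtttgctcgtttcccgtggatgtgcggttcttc
0610005C13Rik (lower on WTD, higher with atorvastatin, chr7:45575127-45575426, minus strand): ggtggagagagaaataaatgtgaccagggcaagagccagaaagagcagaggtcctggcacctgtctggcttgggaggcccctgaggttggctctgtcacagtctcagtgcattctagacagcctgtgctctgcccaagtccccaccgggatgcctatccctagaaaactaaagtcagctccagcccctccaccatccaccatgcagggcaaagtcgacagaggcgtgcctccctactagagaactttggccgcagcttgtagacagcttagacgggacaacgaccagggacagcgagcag
1810008I18Rik (lower on WTD, higher with atorvastatin, chr7:65802787-65803086, plus strand): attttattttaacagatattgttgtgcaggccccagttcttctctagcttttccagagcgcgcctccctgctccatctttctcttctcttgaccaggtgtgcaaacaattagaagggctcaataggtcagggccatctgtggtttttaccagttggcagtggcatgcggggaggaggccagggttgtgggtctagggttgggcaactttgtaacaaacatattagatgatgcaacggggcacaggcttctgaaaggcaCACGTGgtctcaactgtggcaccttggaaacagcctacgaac
Gm34667 (lower on WTD, chr12:110023936-110024235, minus strand): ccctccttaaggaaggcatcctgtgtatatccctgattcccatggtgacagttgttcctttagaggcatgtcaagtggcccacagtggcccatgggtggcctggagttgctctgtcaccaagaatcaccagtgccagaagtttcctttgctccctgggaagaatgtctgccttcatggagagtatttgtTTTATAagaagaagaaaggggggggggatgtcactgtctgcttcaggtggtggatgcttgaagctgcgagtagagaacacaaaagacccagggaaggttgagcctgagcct
Airn (higher on WTD, chr17:12741061-12741360, plus strand): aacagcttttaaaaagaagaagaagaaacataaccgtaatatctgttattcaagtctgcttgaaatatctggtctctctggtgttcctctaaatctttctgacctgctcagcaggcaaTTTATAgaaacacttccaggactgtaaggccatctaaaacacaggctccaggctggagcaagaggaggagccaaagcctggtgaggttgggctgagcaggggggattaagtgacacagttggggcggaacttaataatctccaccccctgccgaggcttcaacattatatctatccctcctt
AU020206 (higher on WTD, chr7:75782071-75782370, minus strand): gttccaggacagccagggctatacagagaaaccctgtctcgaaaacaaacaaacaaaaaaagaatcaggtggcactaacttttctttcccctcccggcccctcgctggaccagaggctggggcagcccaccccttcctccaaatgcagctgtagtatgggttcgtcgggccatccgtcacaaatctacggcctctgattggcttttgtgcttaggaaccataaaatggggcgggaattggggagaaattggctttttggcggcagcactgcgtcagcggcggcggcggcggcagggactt
RefSeq promoters were found for 24 of the 35 genes, and 6 motifs were searched in them on both strands. TATAAA was present in 6 of the 24, namely Xist, Airn, Gm34667, 9030622O22Rik, Gm20300 and Gm31522, and in 13.6% of all 32851 mouse promoters of that length. CACGTG was present in 1810008I18Rik and 4732465J04Rik, against 7.15% of all promoters. The AP-1 motif TGACTCA was present in 4732465J04Rik (5.2% of all) and the sterol element TCACNCCAC in Malat1 (1.24% of all). The nuclear receptor repeats DR1 and DR4 were in no promoter of these 24 genes, and were in 0.0396% and 0.0152% of all. G and C made up between 35% and 71.3% of these promoters with a median of 46.9%, where the median of all promoters was 52.7%, and Tug1 and 1810058I24Rik had the most CpG pairs (37 and 25, against a median of 7 in all promoters). In 5 of the 24 the RefSeq start lies more than 1000 bases from that of the GENCODE gene whose reads were counted, among them Gm31522 (32812 bases) and 4732465J04Rik (27056 bases), so their windows may not lie at the start of the counted RNA. These matches are descriptions of the letters in these windows and not binding sites.

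Depth ranged from 15661381 to 36224054 counts per library, and the 35 genes together held between 0.316% and 0.816% of them. Values are given as CPM, the count divided by the library's scaled total and set to a common depth. Genes that averaged 1 to 2 CPM over a library's own group were taken as weak. In 9 libraries (3 chow, 5 WTD and 1 atorvastatin) more than 20% of these had no count, and the share was 57.3% in chow replicate 2. That library was the highest chow library for 10 of the 35 genes and the lowest for 8. Without these 9 libraries, 27 of the 35 differed between WTD and chow, 4 between atorvastatin and WTD and 22 between atorvastatin and chow, in place of the 28, 2 and 20 given for all libraries. Every pair of libraries within a group differed by more than counting noise: the smallest mean chi-square per gene over 285 pairs within groups was 11.4, where counting noise alone gives about 1. Counting used strand and whole gene bodies: of 376 protein-coding genes lying inside another protein-coding gene on the same strand, 375 had no count at all. For 26 of the 35 lncRNA genes no other gene lay on the same strand, while the other 9, such as Neat1, Xist, Malat1, Airn and Gm26561, lose the reads they share with genes inside them.

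Levels differed widely between the 35 genes. Gm42418 held the most counts, with a mean of 1101 CPM, followed by Neat1 (883.2 CPM), Xist (392.0 CPM), 0610005C13Rik (207.4 CPM) and Malat1 (201.7 CPM). Gm42418 and Gm26917 (191.3 CPM) lie 616 bases apart on chromosome 17, and RefSeq describes the place of Gm42418 as the ribosomal RNA pseudogene Rn18s-rs5. The spans of Gm42418 and Rn18s-rs5 overlap by 1245 bases, so counts of the list are also given without Gm42418 and Gm26917. Per kilobase of exon, Gm42418 stood at 601.4 CPM, AW112010 at 110.4, 0610005C13Rik at 57.9, Neat1 at 42.5, Malat1 at 28.9 and Xist at 21.8, and the lowest was Gm37494 at 1.61. Reads over introns were counted too, and the order depends on the length used: per kilobase of the whole span 0610005C13Rik stood at 27.5 CPM, Xist at 17.1 and AW112010 at 10.8, and the lowest was Gm26561 at 0.08. RefSeq lists 27 of the 35 as lncRNA and has no matching entry for 4. It lists 3 as protein-coding, namely 1810058I24Rik (Stmp1, a small mitochondrial peptide), Tmem250-ps and Gm37494.

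Most of these lncRNAs were lower on WTD. Compared with chow-fed mice, 23 of the 35 were lower and 5 were higher in WTD-fed mice at an adjusted p under 0.01 (edgeR's quasi-likelihood test, Benjamini-Hochberg over all genes tested), together 80% of the list. Among all 15574 genes tested, 33.5% differed, 16% lower and 17.5% higher, and among the 6074 genes whose mean count reached 500 the share was 49.3%, with 30.3% lower and 19% higher. For the 1005 other lincRNA and antisense genes tested, which had fewer counts, it was 14.7%. The median log2 fold change of the 35 was -0.75, against 0.03 over all genes and -0.08 over genes with at least as many counts. In 5 of the 35 (14.3%) the ranges of chow-fed and WTD-fed mice did not overlap, where 5.83% of all genes and 10.8% of genes whose mean count reached 500 had that property. Without Gm42418 and Gm26917 the count was 27 of 33. Of the 30 genes that reached that mean count in each group, 23 differed, 20 lower and 3 higher. The called falls of the 35 include Tmem250-ps and Gm37494, which RefSeq lists as protein-coding.

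**Figure D1:**
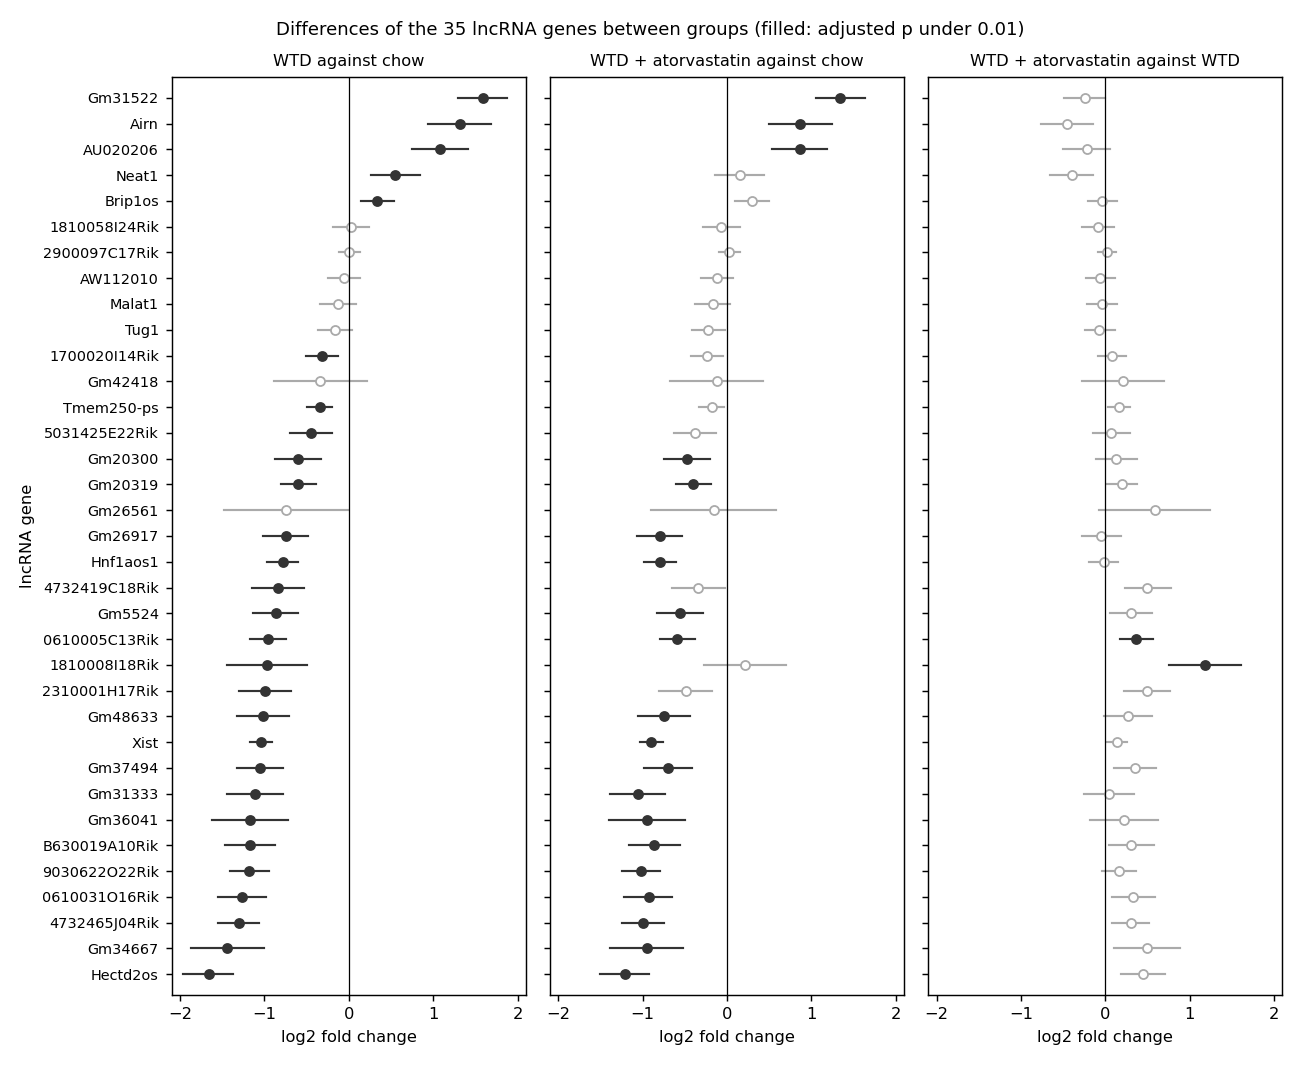
Log2 fold change of each of the 35 lncRNA genes (rows, ordered by the first panel) for WTD against chow, WTD with atorvastatin against chow, and WTD with atorvastatin against WTD. Points are edgeR estimates, lines are 95% intervals, and filled points passed an adjusted p of 0.01; 28, 20 and 2 points are filled.

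Xist had the smallest adjusted p of the 35 in this comparison. Its level was between 493.0 and 716.7 CPM (median 639.8) in chow-fed mice, between 233.5 and 370.0 (median 303.1) in WTD-fed mice, and between 305.9 and 376.2 (median 322.6) with atorvastatin. All 16 WTD-fed mice and all 16 atorvastatin-treated mice lay below the lowest chow-fed mouse. The log2 fold change of WTD against chow was -1.04 ± 0.07 (SE; adjusted p = 2.5e-18), a 2.05-fold lower level. Only female mice were used, and Xist is made in each of their cells that has an inactive X chromosome. Of the other X inactivation lncRNAs tested, Jpx and Ftx did not pass the test (Jpx log2 fold change -0.58 ± 0.39, adjusted p = 0.23). Among 11 tested proteins that work with Xist 1 rose and 1 fell, where 33.5% of all genes and 49.3% of those whose mean count reached 500 differed. Smchd1, a chromatin protein of the inactive X, rose (0.52 ± 0.15, adjusted p = 0.0028). Lbr, which tethers the inactive X to the nuclear lamina, fell (-0.46 ± 0.13, adjusted p = 0.003).

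The deepest fall was in Hectd2os, an antisense gene that spans 91590 bases on chromosome 19 and overlaps Hectd2 over 7084 bases. It measured 66.2 to 129.4 CPM (median 99.0) on chow, 20.3 to 70.4 (median 27.6) on WTD and 21.5 to 63.1 (median 39.9) with atorvastatin. A single WTD-fed mouse reached the lower end of the chow range, and the level was 3.17-fold lower on WTD (log2 fold change -1.66 ± 0.15, adjusted p = 6.8e-13). Hectd2 itself, on the other strand, did not pass the test (0.44, adjusted p = 0.54). Gm34667, a lincRNA whose nearest protein-coding gene, Dio3, lies 255194 bases away, ran from 57.3 to 127.6 CPM (median 90.9) on chow and from 23.2 to 46.6 (median 31.7) on WTD. Those ranges did not overlap (log2 fold change -1.44 ± 0.22, adjusted p = 7.8e-07). With atorvastatin its values spread from 10.5 to 88.1 CPM (median 49.3), 8 mice lying above and 3 below the whole WTD range.

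Further falls of more than 2-fold were measured in 4732465J04Rik, 0610031O16Rik, 9030622O22Rik and Gm36041. 4732465J04Rik went from 34.5 to 85.8 CPM (median 55.5) on chow to 12.1 to 32.4 (median 21.4) on WTD, again with no overlap (-1.30 ± 0.13, adjusted p = 1.6e-12). 0610031O16Rik, which lies across the alcohol dehydrogenase gene Adh7 on the other strand, fell from a median of 116.4 to 45.8 CPM (-1.27 ± 0.15, adjusted p = 8.1e-10), and 15 of 16 WTD-fed mice lay below every chow-fed mouse. Adh7 did not pass the test (-0.29, adjusted p = 0.57). 9030622O22Rik starts 2673 bases beyond the end of Foxa2, which encodes a transcription factor of hepatocyte development, and fell from a median of 64.8 to 28.3 CPM (-1.18 ± 0.12, adjusted p = 3.7e-12). Foxa2 had medians of 46.4 and 36.1 CPM in the same mice and did not pass the test (-0.33 ± 0.12, adjusted p = 0.026). Gm36041 fell from a median of 80.8 to 39.9 CPM (-1.17 ± 0.23, adjusted p = 4.8e-05), and so did its neighbour Avpr1a, the hepatic vasopressin receptor (-0.95 ± 0.14, adjusted p = 1.9e-07).

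B630019A10Rik went against its neighbour. It ends 293 bases before St6gal1, the gene of the enzyme that adds sialic acid to secreted glycoproteins, on the same strand. B630019A10Rik was at 82.7 to 177.6 CPM (median 131.7) on chow and at 37.6 to 96.4 (median 55.7) on WTD (-1.17 ± 0.15, adjusted p = 2.0e-08). St6gal1 was at 75.6 to 112.5 CPM (median 96.9) on chow and at 115.1 to 198.9 (median 160.4) on WTD (0.74 ± 0.08, adjusted p = 1.7e-11). St6gal1 was thus higher in every WTD-fed mouse than in any chow-fed mouse while the lncRNA before it lay below the chow range in 14 of 16.

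The remaining called falls were in Gm26917, Hnf1aos1, Gm20319, 0610005C13Rik, 1810008I18Rik, Gm31333, Gm48633, Gm37494, 2310001H17Rik, Gm5524, 4732419C18Rik, Gm20300, 5031425E22Rik, Tmem250-ps and 1700020I14Rik. Their log2 fold changes ran from -1.11 for Gm31333 to -0.32 for 1700020I14Rik (Oip5os1 or Cyrano, which promotes decay of a microRNA). 1700020I14Rik was called in 6 of 10 other fits. It was not called with DESeq2, RLE normalization, at least 10 counts in every library or only these 2 groups (adjusted p up to 0.023). Its call was also lost when any 1 of 9 libraries was left out. The call of 5031425E22Rik was lost when chow replicate 2 alone was left out (-0.39 ± 0.13, adjusted p = 0.012). It was kept in all 10 other fits, among them the fit without the 9 libraries that missed weak genes, chow replicate 2 included. Gm48633, in the region of Apob, had a value of 13.9 CPM in chow replicate 2 and of 45.2 to 66.6 CPM in the other chow libraries, and leaving that library out gave -1.13 ± 0.13 in place of -1.02 ± 0.16.

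**Figure D2:**
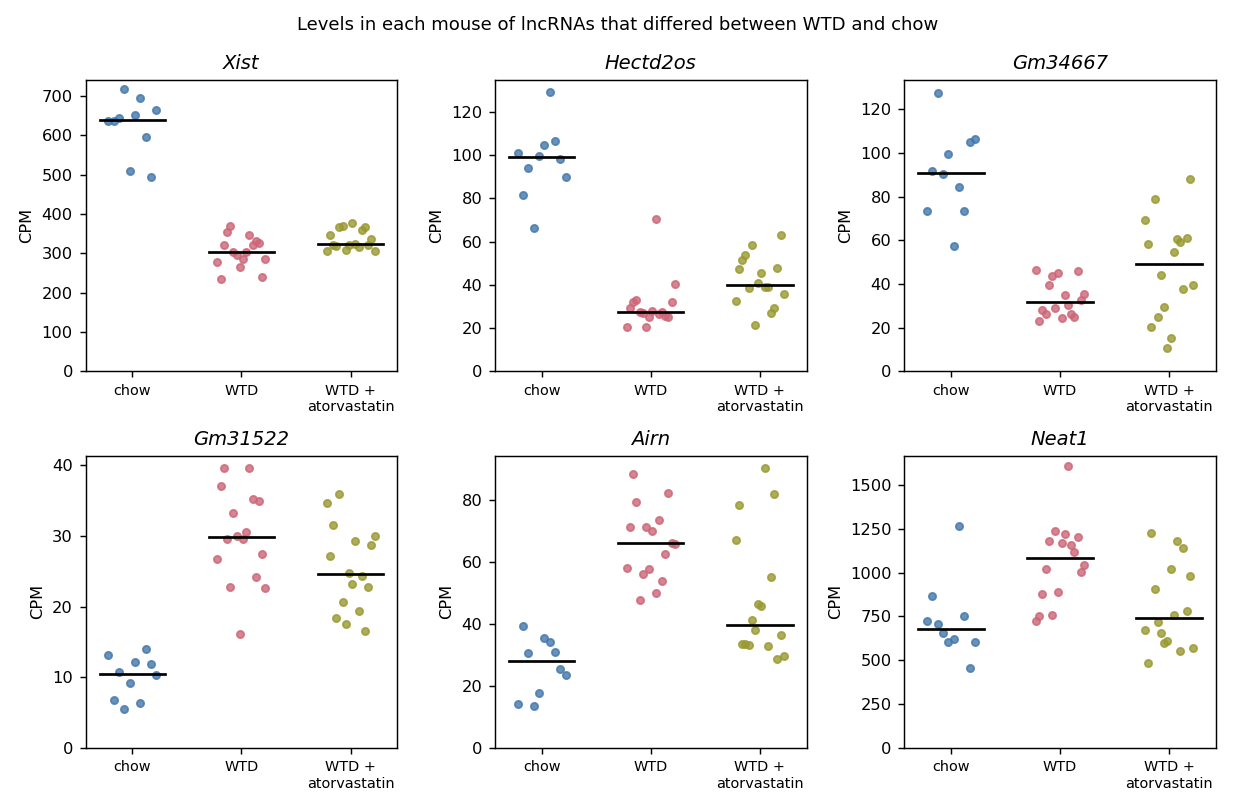
CPM in every mouse (points) for 6 lncRNAs by group, with the group median as a bar; all axes start at 0. Xist, Hectd2os and Gm34667 are lower and Gm31522, Airn and Neat1 higher on WTD; the ranges of chow and WTD are separate for Xist, Gm34667, Gm31522 and Airn, and overlap for Hectd2os and Neat1.

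Of the 5 lncRNAs higher on WTD, Gm31522 and AU020206 had passed the mean count of 500 only through the groups on WTD, so that a higher level there was part of how they were chosen. Gm31522 stood at 5.49 to 14.0 CPM (median 10.5) on chow, 16.1 to 39.6 (median 29.8) on WTD and 16.6 to 36.0 (median 24.6) with atorvastatin, so that no mouse of either WTD group reached down into the chow range. The fold was 3.00 (log2 fold change 1.59 ± 0.15, adjusted p = 1.3e-12). Its start in GENCODE lies 15604 bases from the start of the chemokine gene Ccl2 on the other strand, and RefSeq places it 32812 bases further away. Ccl2 attracts monocytes and was named here after its values were seen. Ccl2 had medians of 2.47, 13.9 and 9.96 CPM in the chow, WTD and atorvastatin groups (WTD against chow 2.44 ± 0.29, adjusted p = 5.0e-10).

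Airn, the imprinted antisense transcript of Igf2r, was at 13.3 to 39.1 CPM (median 28.0) on chow and at 47.5 to 88.3 (median 65.9) on WTD. These ranges were separate, with a log2 fold change of 1.32 ± 0.19 (adjusted p = 1.9e-07). Igf2r, which clears IGF2 and sorts lysosomal enzymes, was higher too, with medians of 38.6 on chow and 58.5 CPM on WTD (0.57 ± 0.09, adjusted p = 1.1e-06). Kcnq1ot1, another imprinted lncRNA and not one of the 35, did not pass the test (0.19 ± 0.17, adjusted p = 0.37). AU020206 had a median of 15.2 CPM on chow and 35.6 on WTD (1.08 ± 0.17, adjusted p = 6.2e-07), 12 WTD-fed mice lying above every chow-fed mouse.

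Neat1 rose less and unevenly. Chow-fed mice had 453.3 to 1266 CPM (median 681.3), WTD-fed mice 726.7 to 1609 (median 1082) and atorvastatin-treated mice 486.6 to 1227 (median 738.8). The log2 fold change of WTD against chow was 0.55 ± 0.15 (adjusted p = 0.0023), and without chow replicate 2, the chow library with 1266 CPM, it was 0.67 ± 0.14 (adjusted p = 1.3e-04). Of 13 tested paraspeckle proteins 5 rose and 2 fell on WTD, where 33.5% of all genes and 49.3% of those whose mean count reached 500 differed, among the former the RNA-binding proteins Rbm3 (0.87 ± 0.12, adjusted p = 1.5e-08) and Pspc1 (0.89 ± 0.17, adjusted p = 1.7e-05). Brip1os, which starts 177 bases from the start of Brip1, was 1.26-fold higher (0.33 ± 0.10, adjusted p = 0.0055). Its call was lost when any 1 of 7 libraries was left out (adjusted p 0.01 to 0.016), chow replicate 2 among them (adjusted p = 0.014). It was kept in 8 of 10 other fits.

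A smaller group, 7 of the 35, passed the test in no comparison. 2900097C17Rik (Norad, which binds Pumilio proteins in the cytoplasm) had medians of 142.2, 142.4 and 147.6 CPM in the chow, WTD and atorvastatin groups, and its log2 fold change of WTD against chow was 0.00 with an interval from -0.12 to 0.13. Malat1, a component of nuclear speckles, had medians of 192.0, 201.2 and 192.9 CPM (-0.13, interval -0.34 to 0.08). Of 14 nuclear speckle proteins tested, 6 fell and 2 rose on WTD, against the same 33.5% and 49.3%, and the smallest p belonged to the splicing-related genes Pnn (-0.54 ± 0.07, adjusted p = 1.1e-09) and Srsf11 (-0.57 ± 0.07, adjusted p = 3.7e-09). Tug1 had a value of 17.9 CPM in chow replicate 2 and of 30.7 to 42.2 CPM in the other chow libraries, and WTD against chow was -0.16 ± 0.10 (adjusted p = 0.2) or, without that library, -0.24 ± 0.09 (adjusted p = 0.026). AW112010, an RNA of stimulated immune cells, was between 59.2 and 129.1 CPM in all mice (-0.06, interval -0.25 to 0.13), and 1810058I24Rik between 58.9 and 130.5 CPM (0.02, interval -0.19 to 0.24). Gm42418 and Gm26561 are described with the spread below.

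Genes next to these lncRNAs were compared with them on WTD. A tested protein-coding neighbour is described for 27 of the 35, the one overlapping on the other strand for 9 of them and otherwise the nearest. The signs of both WTD effects were the same in 20 of the 27 pairs. Signs were not balanced: 28 of the 35 lncRNAs had a negative value. So had 7528 of all 15574 genes tested and 3522 of the 6074 genes whose mean count reached 500. How often unrelated genes agree in sign was not tested. Over all genes tested 33.5% differed on WTD, and 49.3% of those whose mean count reached 500. Both genes were called in 9 pairs, in 7 of them in the same direction. All 3 of these overlapping pairs in which both were called agreed in direction: 0610005C13Rik and Bcat2, Gm20319 and Il1rap, and Airn and Igf2r. Bcat2 encodes an aminotransferase of branched-chain amino acids and fell by 0.83 on the log2 scale (SE 0.10, adjusted p = 1.4e-09), Il1rap encodes the shared subunit of the interleukin 1 receptor and fell by 1.02 (SE 0.13, adjusted p = 2.9e-09). The 2 pairs that went apart were B630019A10Rik with St6gal1 and 1700020I14Rik with Oip5, a gene that had a median of 0.02 CPM on chow and of 1.14 CPM on WTD. In 13 pairs the lncRNA was called and its neighbour was not.

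**Figure D3:**
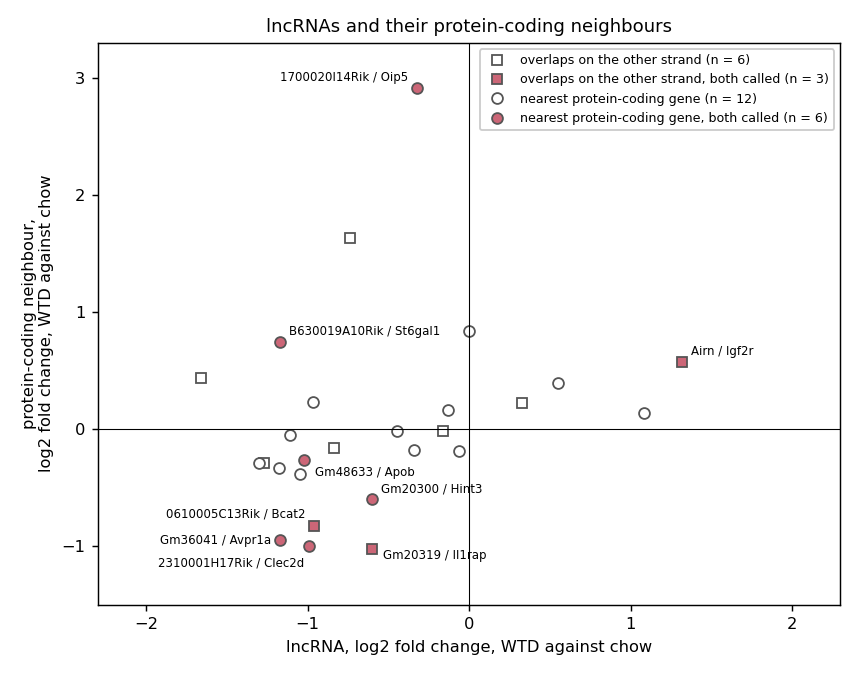
Log2 fold change of WTD against chow for each lncRNA (horizontal axis) and its protein-coding neighbour (vertical axis), 27 pairs; squares overlap on opposite strands, circles are the nearest gene, and filled symbols are pairs with both genes called. Of the 9 filled pairs, 7 lie in the lower left or upper right quadrant.

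Cell type markers moved with the diet as well. The 8 hepatocyte markers were all lower on WTD, with a summed level of 103680 to 154255 CPM on chow, 50195 to 102287 on WTD and 59575 to 125043 with atorvastatin. All 6 markers of lipid-associated macrophages were higher, with sums of 107.4 to 195.7 CPM on chow, 484.5 to 1708 on WTD and 453.8 to 1255 with atorvastatin. Of the others, 4 of 7 stellate cell, 5 of 5 cholangiocyte and 3 of 6 Kupffer cell markers rose and none of these fell, while in sinusoidal endothelium 3 of 6 fell and 1 rose. Spp1 is in both the lipid-associated macrophage and the cholangiocyte list and is counted in each. No T cell or B cell marker passed the test, both neutrophil markers that were tested rose, and 4 of 5 erythroid genes rose. Over all genes tested 17.5% were higher and 16% lower on WTD. Among genes whose mean count reached 500 the shares were 19% and 30.3%. In whole liver, fewer cells of a type and less RNA per cell cannot be told apart, and the part of these shifts in the lncRNA differences was not tested.

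Few of these lncRNAs differed between atorvastatin-treated mice and mice on WTD alone. At an adjusted p under 0.01, 2 of the 35 (5.71%) were higher and 0 were lower, where 7.1% of all genes tested differed (4.84% higher, 2.26% lower) and 15.4% of genes whose mean count reached 500. At an unadjusted p under 0.05, 14 (40%) were higher and 2 (5.71%) were lower, where 14.2% and 10.3% of all genes and 29.1% and 12.6% of genes whose mean count reached 500 were. DESeq2 called 2 higher and 1, Neat1, lower, and limma-voom with sample quality weights 9 higher and 2 lower. The ranges of the groups overlapped for all 35, as they did for all but 0.00642% of genes. The median log2 fold change was 0.16, against 0.00 over all genes and 0.06 over genes with at least as many counts.

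1810008I18Rik, a short lincRNA of chromosome 7 with no established function, had the larger of these rises. WTD-fed mice had 13.0 to 58.6 CPM (median 34.0) and atorvastatin-treated mice 28.1 to 153.0 (median 86.0), where chow-fed mice had 50.8 to 89.3 (median 71.0). In 10 of the 16 treated mice the level was above that of every untreated WTD-fed mouse, and the other 6 lay below every chow-fed mouse. The 5 lowest treated mice, replicates 1, 2, 3, 4 and 7, had 28.1 to 44.5 CPM. The same 5 mice were also the 5 lowest of the treated group for Gm34667 (10.5 to 29.4 CPM, the others 37.6 to 88.1). They were so too for B630019A10Rik, 9030622O22Rik and Gm48633, and were the 5 highest for Airn (55.1 to 90.2 CPM, the others 28.7 to 46.4). These mice were picked after their levels of 1810008I18Rik were seen. Among the 35 lncRNAs, 1810008I18Rik included, they were the 5 lowest for 5, the 5 highest for 1, and neither for the rest. How often they took such places over all genes was not tested. The summed hepatocyte markers of these 5 mice, 59575 to 80758 CPM, were the 5 lowest of the treated group as well. The part of this in the values was not tested. The level of 1810008I18Rik was 2.27-fold higher with atorvastatin (log2 fold change 1.18 ± 0.22, adjusted p = 2.2e-04), after a fall on WTD of 0.97 (SE 0.24, adjusted p = 0.0011). Against chow, atorvastatin-treated mice gave 0.21 with an interval from -0.27 to 0.70 (adjusted p = 0.55), too wide to say that the levels were alike. The nearest protein-coding gene, Pcsk6, lies 55284 bases away, encodes a proprotein convertase, and was higher with atorvastatin as well (0.46 ± 0.13, adjusted p = 0.0084), from a median of 38.8 to 55.5 CPM, but did not pass the test on WTD against chow (0.23, adjusted p = 0.2).

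0610005C13Rik, an abundant antisense RNA of Bcat2, rose by a smaller amount. It measured 261.8 to 336.4 CPM (median 294.6) on chow, 107.2 to 275.5 (median 147.0) on WTD and 124.0 to 276.0 (median 207.2) with atorvastatin. A single mouse of each WTD group reached into the chow range. Atorvastatin against WTD was 0.37 ± 0.10 (adjusted p = 0.0053), and the gene was still 1.51-fold lower than on chow (-0.59 ± 0.11, adjusted p = 1.4e-05). The call against WTD was lost when 1 of 7 libraries was left out (adjusted p 0.01 to 0.013), whereas that of 1810008I18Rik was kept without each of the 42 in turn. Bcat2 did not pass the test with atorvastatin (0.16, adjusted p = 0.27).

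**Figure D4:**
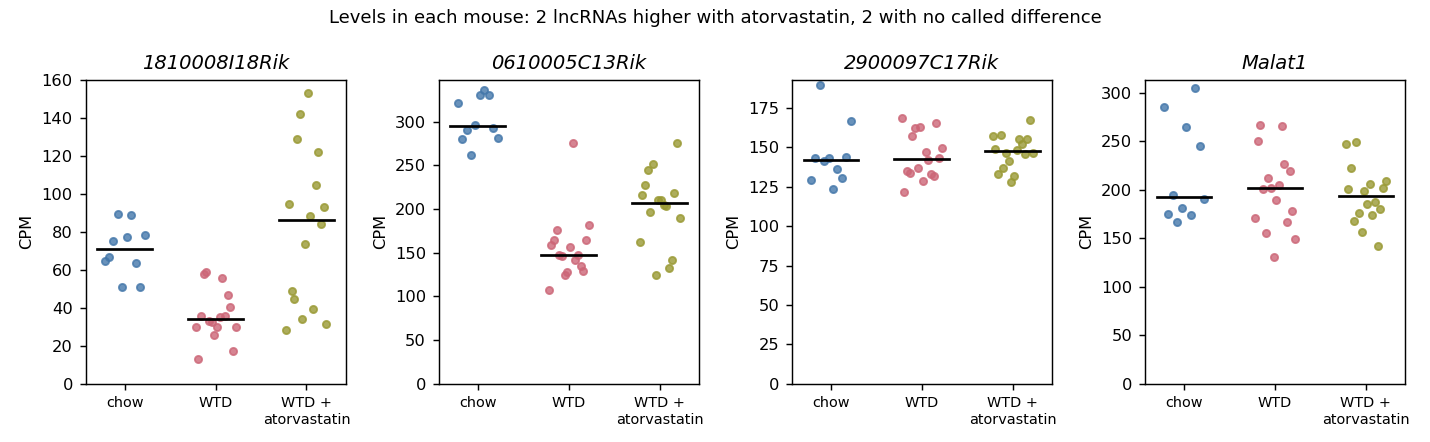
CPM in every mouse (points) by group for the 2 lncRNAs called higher in atorvastatin-treated than in untreated WTD-fed mice, and for 2900097C17Rik and Malat1, which passed the test in no comparison. Bars are medians and axes start at 0; 1810008I18Rik medians are 71.0, 34.0 and 86.0 CPM.

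Several others approached the threshold without passing it. Neat1 was at -0.40 ± 0.13 (adjusted p = 0.03) and Airn at -0.45 ± 0.16 (adjusted p = 0.054) with atorvastatin against WTD, and 11 of 16 treated mice had less Airn than any untreated WTD-fed mouse. 4732419C18Rik, 2310001H17Rik and Hectd2os were at 0.50, 0.49 and 0.45 (adjusted p = 0.012, 0.013 and 0.018). WTD replicate 15 had the highest level of its group for 7 of the 35 lncRNAs and the lowest for 3. Among the 7 were Hectd2os (70.4 CPM, the others at most 40.2), 2310001H17Rik, 0610031O16Rik, 0610005C13Rik and Gm20319. That library also had the highest sum of hepatocyte markers (102287 CPM) and the lowest of lipid-associated macrophage markers (484.5 CPM). Without it Hectd2os (0.58 ± 0.11, adjusted p = 9.5e-05), 2310001H17Rik (0.58 ± 0.13, adjusted p = 0.0013) and 0610031O16Rik (0.44 ± 0.11, adjusted p = 0.0051) were called higher with atorvastatin, and the value of 0610005C13Rik was 0.45 ± 0.08 (adjusted p = 8.4e-05). Other single libraries did the same: 2310001H17Rik was called without any 1 of 6, and Hectd2os without either of 2, WTD replicate 15 included. 4732419C18Rik was called without any 1 of 6 libraries, WTD replicate 15 not among them. Hnf1aos1 was at -0.02 with an interval from -0.19 to 0.15. For Gm20319 the value was 0.20 (adjusted p = 0.16) while Il1rap rose (0.46 ± 0.11, adjusted p = 0.0033). Xist was at 0.14 with an interval from 0.02 to 0.26 (adjusted p = 0.12). Of the hepatocyte markers, 5 of 8 were higher with atorvastatin than on WTD, and 4 of 6 lipid-associated macrophage markers were lower. Over all genes tested 4.84% were higher and 2.26% lower in that comparison. Among genes whose mean count reached 500 the shares were 11.2% and 4.2%.

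Compared with chow-fed mice, atorvastatin-treated mice still differed in 20 of the 35 lncRNAs, 17 lower and 3 higher. Over all genes tested 25% differed, 10.7% lower and 14.2% higher, and among genes whose mean count reached 500 the share was 39.4%. Of the 30 that reached 500 in each group, 16 differed, 15 lower and 1 higher. The median log2 fold change was -0.40 for the 35 and 0.04 for all genes. Groups did not overlap in 5 of the 35, namely Xist, Hnf1aos1, Hectd2os, Gm31333 and Gm31522, against 4.37% of all genes and 8.07% of genes whose mean count reached 500. The comparisons share the chow or the WTD mice, so their values are given side by side and are not independent.

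The largest remaining falls were those of Hectd2os (-1.21 ± 0.15, adjusted p = 7.7e-09), Gm31333 (-1.06 ± 0.17, adjusted p = 1.4e-06), 9030622O22Rik (-1.02 ± 0.12, adjusted p = 7.2e-10), 4732465J04Rik (2.00-fold lower, SE of the log2 fold change 0.13, adjusted p = 6.5e-09), Gm36041 (-0.95 ± 0.23, adjusted p = 0.0011) and Gm34667 (-0.95 ± 0.22, adjusted p = 6.6e-04). Gm31333 measured 42.2 to 83.1 CPM (median 66.3) on chow, 10.2 to 56.5 (median 28.5) on WTD and 20.3 to 41.5 (median 28.1) with atorvastatin, where all 16 treated mice lay below every chow-fed mouse. Xist was at -0.90 ± 0.07 (adjusted p = 1.4e-15) and Hnf1aos1 at -0.80 ± 0.10 (adjusted p = 1.5e-09). Gm31522 (1.34 ± 0.15, adjusted p = 3.2e-10), Airn (0.87 ± 0.19, adjusted p = 2.4e-04) and AU020206 (0.86 ± 0.17, adjusted p = 5.2e-05) were the 3 that stayed higher. Airn was at 28.7 to 90.2 CPM (median 39.6) in treated mice, 8 of which lay above the chow range. Neat1 (0.15, interval -0.14 to 0.44) and Brip1os (0.30, interval 0.10 to 0.50, adjusted p = 0.017) did not pass this test.

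By pattern over the 3 comparisons, 16 lncRNAs were lower in both WTD groups than on chow and not called between them, and 3 (Airn, AU020206 and Gm31522) were higher in the same way. Another 5, Tmem250-ps, 1700020I14Rik, 4732419C18Rik, 5031425E22Rik and 2310001H17Rik, were lower on WTD and called in neither comparison with atorvastatin, and Neat1 and Brip1os were higher on WTD and likewise called in neither. A call in one comparison and none in another does not show that the effects differ.

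The spread among mice of a group was given by the coefficient of variation. Its median over the 35 was 22.5% on chow, 22.2% on WTD and 22.7% with atorvastatin, against 17.9%, 17.3% and 14.1% over the genes whose mean count reached 500. 2900097C17Rik varied least in both WTD groups (10.1% on WTD and 7.28% with atorvastatin), and 0610005C13Rik on chow (8.52%). Gm26561 varied most in both WTD groups, by 54.8% and 134.0%. This lincRNA is annotated over 515207 bases of chromosome 17 and contains Lpin2 and Myom1 on the same strand, both of which have 0 counts in all libraries. Its values were 27.6 to 76.9 CPM on chow, 17.6 to 71.3 on WTD and 7.71 to 254.5 with atorvastatin, the highest in atorvastatin replicate 16.

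The same library had the highest value of Gm42418, 5175 CPM, where the other mice of all groups had at most 2159. Medians of Gm42418 were 1234, 874.9 and 800.1 CPM on chow, WTD and atorvastatin, and WTD against chow was -0.34 ± 0.28 (adjusted p = 0.35). Without atorvastatin replicate 16, atorvastatin against WTD went from 0.21 to -0.18 for Gm42418 and from 0.59 to 0.03 for Gm26561, neither passing the test. Gm26917, beside Gm42418, was at 265.3 CPM in that library, the highest of the atorvastatin group but below 359.3, the highest chow value. It had medians of 260.5, 165.0 and 154.9 CPM and was lower on WTD (-0.75 ± 0.14, adjusted p = 1.2e-05) and with atorvastatin (-0.80 ± 0.14, adjusted p = 7.6e-06) than on chow.

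**Figure D5:**
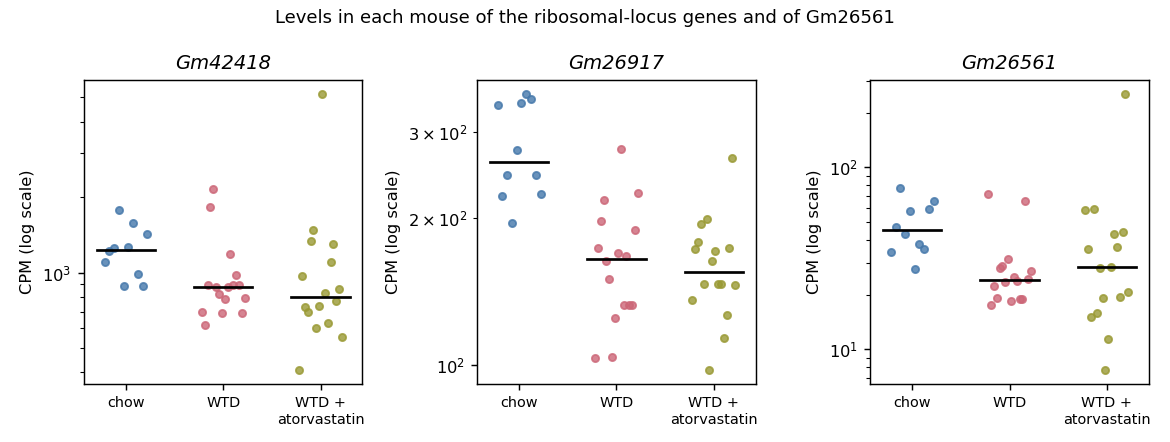
CPM in every mouse (points, log scale) by group for Gm42418, which overlaps a ribosomal RNA pseudogene, its neighbour Gm26917, and Gm26561; bars are medians. Atorvastatin replicate 16 is the highest point of its group in each panel (5175, 265.3 and 254.5 CPM) and the highest of all mice for Gm42418 and Gm26561.

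Other lncRNA lists show where the 35 stand. Of 15 tested lncRNAs described in liver metabolism, which include 0610005C13Rik, Hnf1aos1 and Tug1, 6 fell and 1 rose on WTD, where 33.5% of all genes differed. The smallest p-value belonged to Hnf4aos, antisense to the hepatocyte regulator Hnf4a, which fell from a median of 41.5 to 9.17 CPM (-2.12 ± 0.16, adjusted p = 2.4e-16) and rose with atorvastatin (0.80 ± 0.14, adjusted p = 7.7e-05). None of the small nucleolar RNA hosts or microRNA hosts was among the 35. Of 15 snoRNA hosts 2 rose on WTD, Snhg18 (1.59 ± 0.39, adjusted p = 6.7e-04) and Snhg5 (0.85 ± 0.21, adjusted p = 7.7e-04). Of 5 microRNA hosts Dleu2 fell (-0.86 ± 0.12, adjusted p = 7.4e-08) and Mir142hg, made in blood cells, rose (0.93 ± 0.23, adjusted p = 8.3e-04). Of 16 genes for polyadenylation and nuclear RNA decay 2 fell and 1 rose on WTD, with Exosc3, an exosome subunit, at -0.48 ± 0.13 (adjusted p = 0.0017) and Xrn2, a nuclear exonuclease, at 0.40 ± 0.12 (adjusted p = 0.0044).

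The mean count of 500 separates neighbours in a continuous range. Just above it were Gm5524 (mean count 514.7), Gm31522 (525.1) and Gm20300 (553.7), and just below it Gm11789 (473.0), Gm10076 (454.5) and Ctcflos (433.0). Mean levels on chow, WTD and atorvastatin were 34.1, 18.8 and 23.2 CPM for Gm5524 and 28.1, 19.7 and 21.1 CPM for Gm11789.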

How the data were processed

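Liver RNA of 42 mice was sequenced as paired reads after oligo-dT selection with a directional kit. The authors trimmed with Trimmomatic, aligned to GRCm38 with STAR 2.5 and deposited raw counts per gene from HTSeq 0.6.1p1. The authors counted on GENCODE vM19. Biotypes and spans here, and so the choice of genes, come from the later release vM21 and RefSeq tables of the same build. Genes were filtered with filterByExpr (minimum count 10, total 15), normalized by TMM and tested in edgeR 4.0.16 (R 4.3.3) with robust quasi-likelihood fits over all 42 libraries in 3 groups. Benjamini-Hochberg values under 0.01 were called. SE is the log2 fold change over the root of its F statistic, and intervals are 1.96 SE (95%). Scripts were tested on simulated counts. Alternatives used DESeq2 1.42.0, limma 3.58.1 and left-out libraries. Named were genes of the lncRNA lists, the 6 largest called rises and falls per comparison, all called with atorvastatin, the 5 most abundant, those beside the count minimum, and neighbours; 1 neighbour pair is not reported here. The genes and lists were chosen with earlier results of these data known. Replicates are separate mice, and numbers follow accession order.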

Additional observations from a re-analysis of the deposited data

Results flagged for a closer look

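In the chow group 3 of the 35 lncRNAs had a single mouse whose distance from the others was large for the range of the group (Dixon's criterion for 10 values), and in each it was chow replicate 2. Neat1 was at 1266 CPM there and at 453.3 to 866.2 in the other 9 mice. Tug1 was at 17.9 CPM and otherwise at 30.7 to 42.2. Gm48633 was at 13.9 CPM and otherwise at 45.2 to 66.6. By chance about 1 in 20 groups meets the criterion, and 35 were examined. This library also lacked counts for 57.3% of the genes that averaged 1 to 2 CPM over the chow group, and the part of this in the 3 values was not tested.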

How the results depend on the processing

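Of the 28 lncRNAs called for WTD against chow, 25 were called under each of 10 other fits and without each single library, as were 1 of 2 for atorvastatin against WTD and 19 of 20 for atorvastatin against chow, and no called value changed sign. With a change of at least 1 on the log2 scale also required, the counts were 14, 1 and 5. With a mean count of at least 250 they were 49, 6 and 38 of 65 genes, and with at least 1000 they were 14, 2 and 10 of 19. For these and the other changed settings of this section the share over all genes is not given. The counts therefore show only how the list itself depends on the setting. Atorvastatin against WTD moved most: 1 was called with RLE normalization, 1 with only these 2 groups, 4 without the 9 libraries that missed weak genes, 6 at an adjusted p under 0.05 and 11 with limma-voom. Leaving out 1 library gave 26 to 28, 1 to 5 and 19 to 22. The count was 1 without WTD replicates 2, 6, 11 or 13 or atorvastatin replicates 6, 9 or 14, each of which lost 0610005C13Rik (adjusted p 0.01 to 0.013), 4 without WTD replicate 1 or atorvastatin replicates 1, 3 or 4, and 5 without WTD replicate 15. WTD calls lost with 1 library were 1700020I14Rik (9 libraries, adjusted p up to 0.032), Brip1os (7 libraries, up to 0.016) and 5031425E22Rik (chow replicate 2), and for atorvastatin against chow Gm20300 (6 libraries, up to 0.034). No paired analysis was possible because mice of different groups share no label that pairs them. The causes of these shifts were not tested. Depth limits lncRNAs with fewer counts, which were not examined singly.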
